A study of Mus musculus with 10 samples.

Results

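The 4 *Mef2* genes and the 4 genes of the class IIa histone deacetylases were followed in dorsal root ganglia (DRG), the ganglia that hold the cell bodies of somatosensory neurons, of E18.5 mouse embryos. The 8 genes, *Mef2a*, *Mef2b*, *Mef2c*, *Mef2d*, *Hdac4*, *Hdac5*, *Hdac7* and *Hdac9*, were chosen by symbol among the 55414 genes counted in each library. They were proposed with the difference of *Mef2c* between the groups already known, so the group values of the 8 genes are given as a description: fitted intervals and the call are stated, but no p-value is given for these genes and nothing is read from the call. RNA of whole DRG was sequenced from 5 control and 5 *WD1* cKO embryos. *WD1* cKO embryos were Wnt1Cre/+; Dach1 flox/flox, so that Cre, driven by regulatory sequence of *Wnt1* in the neural crest, removes a floxed exon of *Dach1*. Control embryos were taken to carry Dach1 flox/flox without Cre, the genotype that the labels enter for the libraries titled with Cre. The floxed line was of mixed C57Bl/6J and CD1 background. Groups were taken from the sample titles. The genotype given in another field of the labels names the opposite group for each library. The controls were littermates, but which embryos shared a litter is not given in the sources used here, and p-values measure only the spread between these samples.

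MEF2 proteins are transcription factors that bind a short A- and T-rich site and can both activate and repress genes. The class IIa deacetylases bind MEF2 directly and hold its target genes silent, until kinases such as those of the CaMK, PKD and SIK families phosphorylate the deacetylase and 14-3-3 proteins keep it out of the nucleus. In neurons this switch is known for linking electrical activity to gene expression and to the number of synapses, and in muscle for the differentiation of fibres.

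The promoters of the genes are shown because MEF2 factors are known to act on their own genes, and because *Mef2c* is the gene whose level differed between the groups. RefSeq promoter sequences of GRCm38.p6, each of 300 bases (250 before and 50 after an annotated start), were at hand for all 8 genes, with 14 promoters in all. They were searched on both strands for TAAAAATA, the core of the classical MEF2 site, and for its palindromic frame, CTA and TAG with any 4 bases between them, a match that can overlap the first. TAAAAATA was found in 3 of the 14 promoters and in 2.72% of all 32851 promoters, and the frame in 3 of the 14 and in 3.69% of all. The matched bases are in capitals in the sequences, which are written 5′ to 3′ on the strand of the gene. The 3 *Mef2c* promoters (chr13:83503784-83504083, chr13:83523406-83523705 and chr13:83573357-83573656, plus strand) held neither motif and are shown as the promoters of the gene that differed. The promoters of *Mef2a* (chr7:67372809-67373108, minus strand) and *Hdac5* (chr11:102230123-102230422, minus strand) and the second promoter of *Hdac9* (chr12:34528840-34529139, minus strand) are shown because they held matches.
Mef2c, first promoter: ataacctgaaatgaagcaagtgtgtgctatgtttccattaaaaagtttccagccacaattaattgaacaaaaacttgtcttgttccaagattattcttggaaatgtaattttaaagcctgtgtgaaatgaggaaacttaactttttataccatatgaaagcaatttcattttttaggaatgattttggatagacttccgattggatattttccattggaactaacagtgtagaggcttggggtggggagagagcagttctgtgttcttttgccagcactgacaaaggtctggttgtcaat
Mef2c, second promoter: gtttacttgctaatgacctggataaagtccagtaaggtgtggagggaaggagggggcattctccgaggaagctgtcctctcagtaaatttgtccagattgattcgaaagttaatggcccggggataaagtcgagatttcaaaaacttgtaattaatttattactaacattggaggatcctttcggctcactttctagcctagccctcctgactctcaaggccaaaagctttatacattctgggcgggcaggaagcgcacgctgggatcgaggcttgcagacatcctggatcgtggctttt
Mef2c, last promoter: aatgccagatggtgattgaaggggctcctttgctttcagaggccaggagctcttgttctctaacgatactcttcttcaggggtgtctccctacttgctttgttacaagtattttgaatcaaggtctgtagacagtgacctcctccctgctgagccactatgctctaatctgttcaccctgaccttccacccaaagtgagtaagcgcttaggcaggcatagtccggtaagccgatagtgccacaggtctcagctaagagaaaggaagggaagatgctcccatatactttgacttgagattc
Mef2a: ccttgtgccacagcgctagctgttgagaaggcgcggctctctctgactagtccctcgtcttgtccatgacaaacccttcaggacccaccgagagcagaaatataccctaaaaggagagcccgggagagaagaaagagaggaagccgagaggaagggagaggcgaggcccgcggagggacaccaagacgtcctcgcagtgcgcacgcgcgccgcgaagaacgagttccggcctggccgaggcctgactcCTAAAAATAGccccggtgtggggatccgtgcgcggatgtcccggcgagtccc
Hdac5: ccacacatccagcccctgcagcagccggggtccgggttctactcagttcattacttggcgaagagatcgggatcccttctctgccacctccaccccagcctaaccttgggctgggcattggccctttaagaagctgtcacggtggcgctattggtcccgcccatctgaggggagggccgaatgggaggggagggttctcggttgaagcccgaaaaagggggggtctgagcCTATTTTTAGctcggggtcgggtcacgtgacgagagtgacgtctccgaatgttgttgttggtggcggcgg
Hdac9, second promoter: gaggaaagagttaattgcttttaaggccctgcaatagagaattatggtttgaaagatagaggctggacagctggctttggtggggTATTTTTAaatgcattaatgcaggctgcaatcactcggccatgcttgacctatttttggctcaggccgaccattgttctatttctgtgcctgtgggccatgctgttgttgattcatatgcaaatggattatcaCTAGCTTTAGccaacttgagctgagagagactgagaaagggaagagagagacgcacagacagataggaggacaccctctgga

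In *Mef2a* the 2 motifs coincided in CTAAAAATAG, whose first base lies at position -2 relative to the annotated start. In *Hdac5* they coincided in CTATTTTTAG, which starts at position -20. In the second promoter of *Hdac9* they lay apart, TATTTTTA at position -165 and CTAGCTTTAG at position -32, and the latter fits the frame only, since it holds G and C between its ends. The GC content of the 14 promoters ranged from 35.7%, in the first promoter of *Mef2c*, to 73.7%, in *Hdac7*, beside a median of 52.7% over all promoters. A match of letters is not a bound site, and the absence of these letters from the windows of *Mef2c* and the other genes says nothing of their regulation elsewhere.

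Libraries held 20465132 to 27528784 counts in the control group and 19757596 to 34796562 counts in the *WD1* cKO group. Levels are given as CPM (counts scaled to a common library size of 1000000) after scaling of the library sizes by TMM. *Dach1*, the targeted gene, was at 35.1, 38.5, 41.6, 37.1 and 37.4 CPM in control replicates 1 to 5 and at 19.1, 20.7, 19.5, 20.3 and 20.4 CPM in *WD1* cKO replicates 1 to 5, so that the labels by title hold in each of the 10 libraries. The count takes in all exons, so RNA without the floxed exon can still add to it. Exons were not counted apart, and the source of the remaining counts was not tested. Neuronal markers were present in every library, at a sum of 7199 to 7760 CPM over the 8 genes of the list. Control replicate 3 stood apart, with a summed level of 5 spinal cord markers of 15.1 CPM, where the other 9 libraries had from 0.0736 to 1.09 CPM, and the fold changes, *Mef2c* shares, the split by replicate number and the correlations are also given without it.

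*Mef2c* (ENSMUSG00000005583, chromosome 13), which encodes a MEF2 factor known for its part in the development of the heart, the central nervous system and muscle, was lower in the DRG of *WD1* cKO embryos. It was at 91.8, 85.5, 77.4, 81.9 and 86.2 CPM in control replicates 1 to 5 and at 71.7, 62.3, 64.3, 60.4 and 63.5 CPM in *WD1* cKO replicates 1 to 5. Each of the 5 *WD1* cKO libraries lay below the lowest control library, and the nearest pair was *WD1* cKO replicate 1 and control replicate 3. The control mean was 84.6 ± 5.33 CPM (SD, n = 5). That of the *WD1* cKO libraries, 64.4 ± 4.32 CPM (SD, n = 5), was 76.2% of it. These values rest on 1188 to 2226 counts per library. The log2 fold change from edgeR's quasi-likelihood fit was -0.39 (standard error 0.053), with a 95% interval from -0.51 to -0.28, which corresponds to 70.3% to 82.6% of the control level. In RNA of whole ganglia, fewer cells that express a gene and less of its RNA per cell cannot be told apart.

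**Figure D1:**
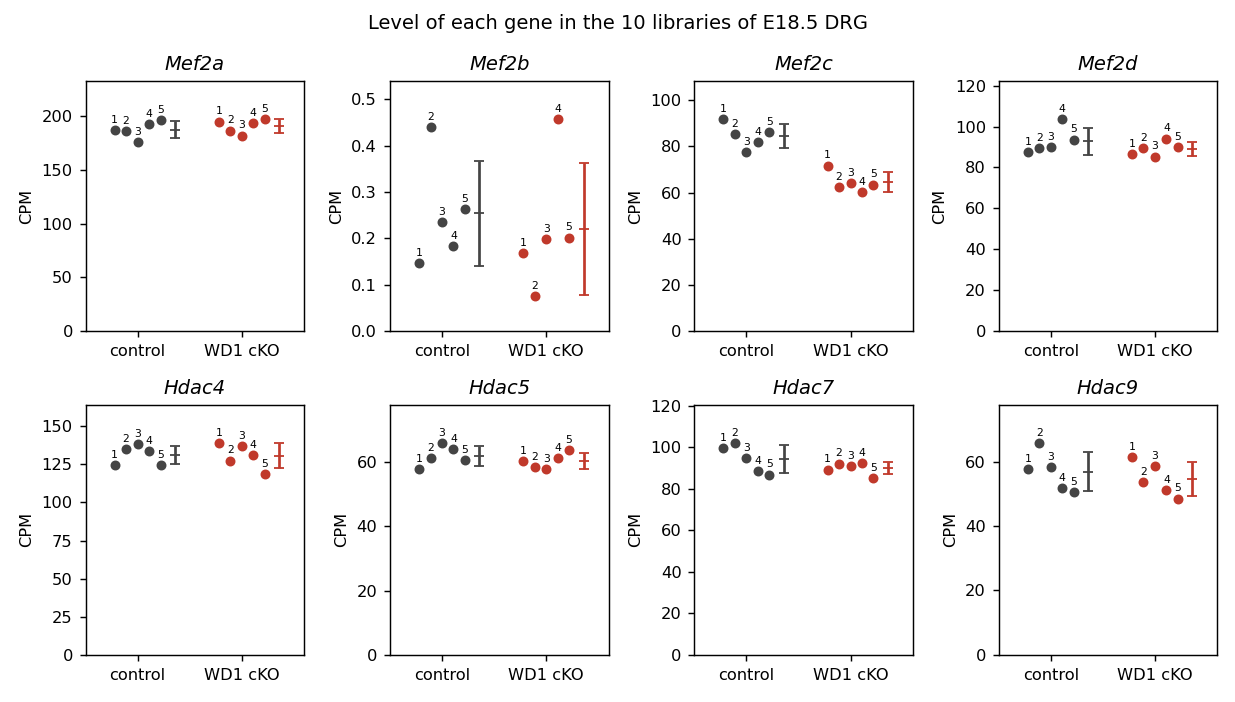
CPM of each of the 8 genes (vertical axes, from 0, a scale for each gene) in control (grey) and *WD1* cKO (red) libraries, with the replicate number above each point and the mean ± SD (n = 5) beside the points. For *Mef2c* the 5 *WD1* cKO libraries (60.4 to 71.7 CPM) lie below all 5 control libraries (77.4 to 91.8 CPM), and for the 7 other genes the groups overlap.

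*Mef2a* (ENSMUSG00000030557, chromosome 7), whose protein is the MEF2 factor best known from heart and neurons, was at 187, 186, 176, 193 and 196 CPM in control replicates 1 to 5 and at 195, 187, 182, 194 and 197 CPM in *WD1* cKO replicates 1 to 5. The groups overlapped, with 4 of the 5 *WD1* cKO libraries inside the control range and 1 above it. Its log2 fold change was 0.025 (standard error 0.037, 95% interval -0.055 to 0.11). A difference of the size seen for *Mef2c* lies outside this interval. The ratio of *Mef2c* to *Mef2a* counts within a library, which does not depend on the scaling, was 0.425 to 0.490 in control libraries and 0.311 to 0.368 in *WD1* cKO libraries, without overlap.

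*Mef2d* (ENSMUSG00000001419, chromosome 3), the MEF2 factor expressed most widely across tissues, was at 87.4, 89.3, 90.1, 104 and 93.6 CPM in control replicates 1 to 5 and at 86.4, 89.6, 85.3, 94.1 and 90.1 CPM in *WD1* cKO replicates 1 to 5. The ranges overlapped, although 2 *WD1* cKO libraries fell just below the lowest control library, and control replicate 4 was the highest of the 10. The log2 fold change was -0.060 (standard error 0.047, 95% interval -0.16 to 0.043).

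*Mef2b* (ENSMUSG00000079033, chromosome 8), known mainly from B lymphocytes, was at the edge of detection, with 3 to 10 counts per library in control and 2 to 9 in *WD1* cKO embryos. It did not pass the filter of at least 10 counts in at least 5 libraries and was not fitted. Its 29 counts summed over the control libraries and 28 over the *WD1* cKO libraries show no more than its presence at a trace. It also shares exonic sequence with *Borcs8* on the same strand, so that even these counts are uncertain.

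Among the class IIa deacetylases, *Hdac4* (ENSMUSG00000026313, chromosome 1), which represses MEF2 in neurons and growing cartilage, was at 125, 135, 138, 134 and 125 CPM in control replicates 1 to 5 and at 139, 127, 137, 131 and 119 CPM in *WD1* cKO replicates 1 to 5. The lowest and the highest of the 10 libraries were both *WD1* cKO. Its log2 fold change was -0.0065 (standard error 0.047, 95% interval -0.11 to 0.096).

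*Hdac5* (ENSMUSG00000008855, chromosome 11), whose protein leaves the nucleus of sensory neurons after axon injury, was at 57.7, 61.3, 66.0, 64.1 and 60.6 CPM in control and at 60.4, 58.4, 57.8, 61.3 and 63.8 CPM in *WD1* cKO replicates 1 to 5. Each *WD1* cKO library lay within the control range. The log2 fold change was -0.038 (standard error 0.043, 95% interval -0.13 to 0.055).

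*Hdac7* (ENSMUSG00000022475, chromosome 15), known from endothelium and developing T cells, was at 99.8, 102, 94.7, 88.7 and 86.9 CPM in control and at 89.3, 92.3, 91.2, 92.3 and 85.1 CPM in *WD1* cKO replicates 1 to 5. The ranges overlapped, and the 3 highest libraries were control replicates 1 to 3. The log2 fold change was -0.069 (standard error 0.047, 95% interval -0.17 to 0.034).

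*Hdac9* (ENSMUSG00000004698, chromosome 12), whose gene also gives rise to a shortened corepressor without the catalytic domain, was at 57.6, 65.8, 58.4, 51.9 and 50.5 CPM in control and at 61.4, 53.7, 58.6, 51.2 and 48.5 CPM in *WD1* cKO replicates 1 to 5. It varied most among the genes that passed the filter, with a coefficient of variation of 10.7% in control, where *Mef2a* had 4.13%. The log2 fold change was -0.056 (standard error 0.080, 95% interval -0.23 to 0.12), the widest interval of the 7 genes. Counts per gene add the reads of all its isoforms, so the full-length and the shortened form cannot be told apart.

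Of the 7 genes that passed the filter, 1 (*Mef2c*) was called, that is, fell under 0.05 after Benjamini-Hochberg adjustment of edgeR's p-values over all genes tested, where 0.04% of all genes were called (7 of 17490). The ranges of the 2 groups did not overlap, with *WD1* cKO lower, for 1 of the 7, where they did so for 0.566% of all genes. Since *Mef2c* was chosen for this contrast, nothing is read from these counts. For the 6 other genes the 95% intervals together spanned 85.3% to 109% of the control level, so that larger differences in either direction lay outside them. Both ends are those of *Hdac9*, and the other intervals were narrower, such as 96.3% to 108% for *Mef2a*. Differences within a gene's own interval were not resolved with 5 libraries a group. The median absolute log2 fold change over all genes tested was 0.053.

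The call of *Mef2c* was lost in 8 of the 10 fits that left out 1 library, namely control replicate 1, 2, 4 or 5 or *WD1* cKO replicate 2, 3, 4 or 5, in which 3 or 4 genes in all were called. The log2 fold change of *Mef2c* in the 10 fits stayed between -0.43 and -0.36, and was -0.42 without control replicate 3. Those of the 6 other genes then lay from -0.070 (*Mef2d*) to 0.012 (*Hdac4*).

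**Figure D2:**
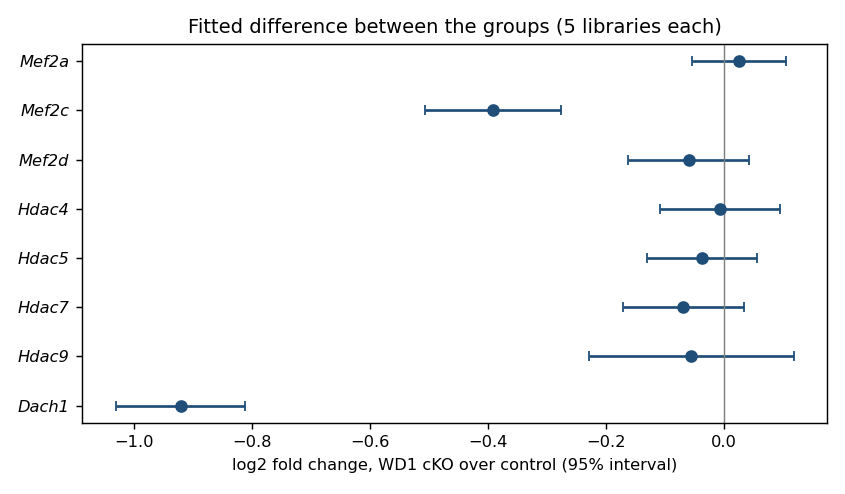
Log2 fold change of *WD1* cKO over control (horizontal axis) from the edgeR fit for the 7 genes that passed the filter and for *Dach1*, with 95% intervals as bars (5 libraries per group). The intervals of *Mef2c* (-0.51 to -0.28) and *Dach1* (-1.03 to -0.81) lie below 0, and those of the 6 other genes include 0.

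To compare the genes with each other, CPM were divided by the length of the annotated exons of each gene in kilobases. In control DRG this level per length was 15.5 ± 1.08 for *Mef2d*, 13.98 ± 0.989 for *Hdac7*, 12.8 ± 0.527 for *Mef2a*, 8.29 ± 0.388 for *Hdac4*, 7.06 ± 0.365 for *Hdac5*, 5.38 ± 0.339 for *Mef2c*, 3.87 ± 0.414 for *Hdac9* and 0.181 ± 0.0811 for *Mef2b* (CPM per kilobase, SD, n = 5). The control ranges of *Mef2d* and *Hdac7* overlapped, as did those of *Hdac7* and *Mef2a*, and the other neighbours in this order did not overlap. *Mef2d* thus stood above 78.2% of the 14856 protein-coding genes tested, *Mef2c* above 47.6% and *Hdac9* above 38.9%. The order depends on the length used. With the longest annotated transcript in place of all exons, *Mef2a* came first at 33.9 and *Mef2c*, at 13.5, stood above *Hdac5*, at 11.5. The exons of *Mef2a* cover 14681 bases and its longest transcript 5538 bases, and those of *Mef2c* 15715 and 6277 bases.

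On either length *Mef2c* stood below *Mef2a* and *Mef2d* in control DRG. Its share in the summed level per length of the 4 *Mef2* genes was 17.5%, 16.3%, 15.3%, 14.6% and 15.8% in control replicates 1 to 5 and 14.1%, 12.5%, 13.2%, 11.6% and 12.4% in *WD1* cKO replicates 1 to 5. The lowest control share (14.6%) and the highest *WD1* cKO share (14.1%) lay close together without overlap, and the means were 15.9% ± 1.11 and 12.8% ± 0.941 (SD, n = 5). Without control replicate 3 the control mean was 16.1%. With the longest transcript as the length the means were 20.8% and 16.7%. The share of *Mef2a* was 37.8% ± 0.777 in control and 40.5% ± 0.562 in *WD1* cKO embryos, and that of *Mef2d* 45.8% ± 1.82 and 46.3% ± 1.17. Because shares add up to a fixed total, the share of the others rises where 1 gene falls.

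The summed level of the 4 *Mef2* genes was 33.8 ± 1.40 CPM per kilobase in control and 32.2 ± 0.880 in *WD1* cKO embryos (SD, n = 5), with overlapping ranges of 32.1 to 35.8 and 30.9 to 33.1. The sum of the 4 class IIa deacetylases was 33.2 ± 1.57 and 32.2 ± 0.926 CPM per kilobase. The ratio of deacetylase to *Mef2* sums was 0.984 ± 0.0796 in control and 1.00 ± 0.0455 in *WD1* cKO embryos, with overlapping ranges. Within the class IIa deacetylases *Hdac7* held the largest share, 42.1% ± 1.68 in control and 41.4% ± 1.04 in *WD1* cKO embryos, and *Hdac9* the smallest, 11.6% ± 0.736 and 11.6% ± 0.851.

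**Figure D3:**
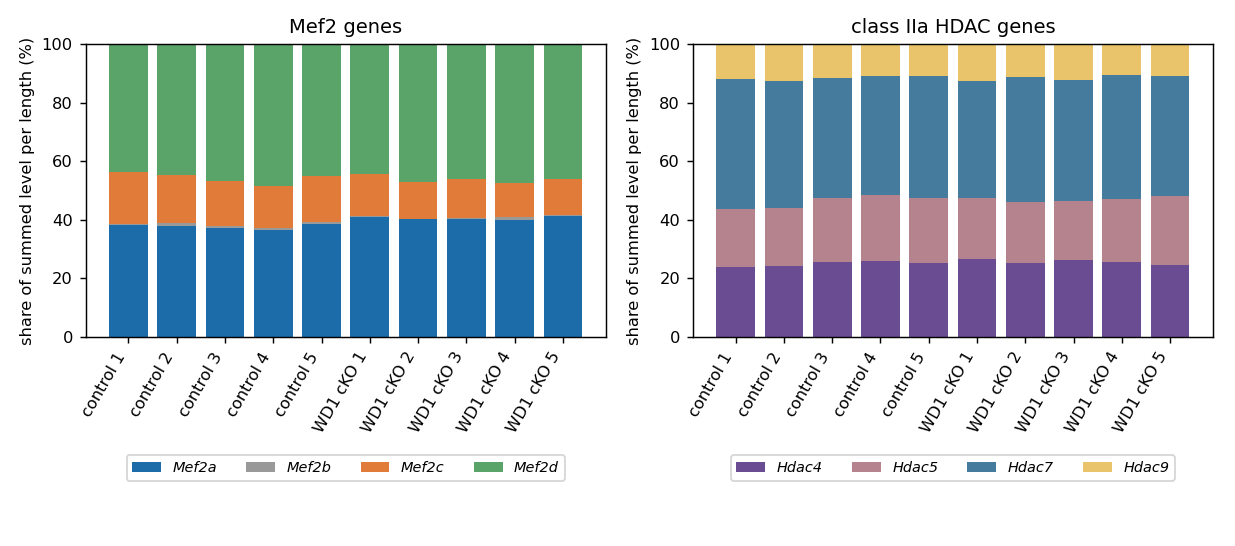
Share of each gene (vertical axis, percent) in the summed level per length of its family, in each of the 10 libraries, for the *Mef2* genes (left) and the class IIa deacetylases (right). The *Mef2c* band is narrower in the *WD1* cKO libraries, 11.6% to 14.1% against 14.6% to 17.5% in control, and the deacetylase bands are of like height in both groups.

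Some of the spread among libraries went with the replicate number, whose meaning the labels do not state. This was noticed in earlier results of these data and is given as a description. *Hdac9* was at 53.7 to 65.8 CPM in the 6 libraries numbered 1 to 3 and at 48.5 to 51.9 CPM in the 4 libraries numbered 4 and 5, without overlap and in both groups. *Mef2d* was at 85.3 to 90.1 CPM in the former and at 90.1 to 104 CPM in the latter, where the nearest libraries (90.10 and 90.15 CPM) all but touched. Without control replicate 3 the libraries numbered 1 to 3 had 85.3 to 89.6 CPM of *Mef2d* and again 53.7 to 65.8 CPM of *Hdac9*. Such a separation by number held for 2 of the 7 genes and for 11.2% of all genes tested. *Mef2c* overlapped between the sets, at 62.3 to 91.8 and 60.4 to 86.2 CPM, and its difference of mean log2 CPM between *WD1* cKO and control was -0.36 within the libraries numbered 1 to 3 and -0.44 within those numbered 4 and 5. For *Hdac7* the same difference was -0.12 and 0.014.

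Around the group means, the 7 genes did not vary as 1 set. Pearson's r of log2 CPM, centred within each group, was above 0 in 10 of the 21 pairs of genes over the 10 libraries, with a median of -0.048. The highest were those of *Hdac9* with *Hdac7* (0.72) and with *Hdac4* (0.70), and the lowest that of *Hdac9* with *Mef2d* (-0.68). *Mef2c* correlated with *Mef2a* at 0.36, with *Mef2d* at -0.47 and with *Hdac5* at -0.57. Without control replicate 3 the r of *Mef2c* with these genes was 0.018, -0.69 and -0.39, those of *Hdac9* with *Hdac7*, *Hdac4* and *Mef2d* were 0.72, 0.71 and -0.67, and 10 of the 21 pairs were again above 0. These are descriptions over libraries that share their scaling and the pattern by replicate number.

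Over 12345 other genes with a mean of at least 5 CPM, those whose centred log2 CPM followed *Mef2c* most closely were *Ankib1* (r = 0.97), *Rabep1* (0.95), *Ppa2* (0.95), *Scyl2* (0.94), *Ccdc25* (0.94), *Usp37* (0.92), *Nol8* (0.91) and *Qrich1* (0.91). The most opposed were *Kif1c* (-0.95), *Zbtb2* (-0.92), *Rpe* (-0.92) and *Fdxr* (-0.91). Each r is over 10 libraries, and the median over all these genes was 0.0015. The named genes are the ends of an order of 12345 values. How far such ends would reach without a relation to *Mef2c* was not tested. Without control replicate 3 the r of the first 8 lay from 0.89 to 0.96 and that of the last 4 from -0.94 to -0.88, and only 4 of the 8 and 1 of the 4 were still at the ends of the order. The log2 fold changes of these 12 genes between the groups lay from -0.068 (*Fdxr*) to 0.066 (*Zbtb2*), beside -0.39 for *Mef2c*.

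The genes that write, read and relay the MEF2 and deacetylase switch were examined in 7 lists of 70 genes, all of which passed the filter. None of the 70 was called after adjustment by edgeR, where 0.04% of all genes were, and none by DESeq2's Wald test. At an unadjusted p-value under 0.05 there were 3 of 70 lower and 0 higher in *WD1* cKO embryos, where 2.38% and 2.12% of all genes were lower and higher at that threshold. The median log2 fold change of the 70 genes was -0.0097, with 45 below 0, and the median over all genes tested was 0.00022. The median absolute log2 fold change was 0.037, beside 0.053 over all genes. The list genes and all genes were not matched for expression level, so nothing is read from this difference.

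The 3 genes at an unadjusted p-value under 0.05 were kinases that act on class IIa deacetylases. *Camk1g*, a calcium/calmodulin-dependent kinase, was at 69.9 to 85.3 CPM in control and at 64.2 to 75.9 CPM in *WD1* cKO embryos (log2 fold change -0.14, standard error 0.064, edgeR adjusted p = 1.00, unadjusted p = 0.048). *Sik1*, a salt-inducible kinase, was at 17.7 to 20.8 and 15.4 to 18.6 CPM (log2 fold change -0.14, standard error 0.066, edgeR adjusted p = 1.00, unadjusted p = 0.049). *Mark2*, a kinase of microtubule-associated proteins that also phosphorylates these deacetylases, was at 111 to 122 and 105 to 113 CPM (log2 fold change -0.083, standard error 0.034, edgeR adjusted p = 1.00, unadjusted p = 0.030). The ranges of the 2 groups overlapped for each of the 3, and none of the 3 passed the adjusted threshold. Of the 17 kinases, 13 had a log2 fold change below 0, with a median of -0.028, beside a median of 0.00022 over all genes tested. Nothing is read from this count. The count of genes lower at an unadjusted p-value under 0.05 was 1 without control replicate 2 or 3 or *WD1* cKO replicate 5, and 1 or 2 genes were higher at it without control replicate 4 or 5 or *WD1* cKO replicate 4 or 5.

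In the other lists no gene had an unadjusted p-value under 0.05, and the genes named in this paragraph were picked as the ends of their lists after their values were seen. Log2 fold changes of the 7 other deacetylases ran from -0.13 (*Hdac1*) to 0.13 (*Hdac8*), and *Hdac3*, the enzyme that gives class IIa complexes most of their deacetylase activity, was at -0.0044. Those of the 8 corepressor genes ran from -0.080 (*Ctbp1*) to 0.016 (*Tbl1x*), with *Ncor1*, which encodes a scaffold between class IIa enzymes and *Hdac3*, at -0.014. Those of the 6 coactivators ran from -0.092 (*Carm1*) to 0.075 (*Kat2b*). For the 14-3-3 genes and the exportin gene *Xpo1* they ran from -0.23 (*Sfn*) to 0.045 (*Ywhah*). For calcineurin subunits and the MAP kinases that act on MEF2 they ran from -0.082 (*Mapk11*) to 0.11 (*Ppp3cc*).

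Of the 12 genes put in the list of activity-regulated MEF2 targets, 7 had a log2 fold change above 0 and 5 below 0, with a median of 0.035. Whether each is a MEF2 target in DRG, and which cells its reads came from, was not tested. None had an unadjusted p-value under 0.05. *Bdnf*, a neurotrophin, had the highest value (0.19, 95% interval -0.15 to 0.54) and *Arc*, an immediate early gene of synapses, the lowest (-0.051, 95% interval -0.48 to 0.38). *Nr4a1*, an orphan nuclear receptor that limits synapse number downstream of MEF2, was at 0.070, *Jun* at 0.11 and *Pcdh10*, a protocadherin of MEF2-dependent synapse elimination, at 0.067. The interval of *Arc* includes a fall of the size of that of *Mef2c* (-0.39). So does that of *Klf2* (-0.44 to 0.40), a gene of this list named after its values were seen. The interval of *Bdnf* includes a rise of that size but not such a fall. That size serves only as a scale, since a target need not change as much as *Mef2c*. The response of MEF2 targets was not tested.

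**Figure D4:**
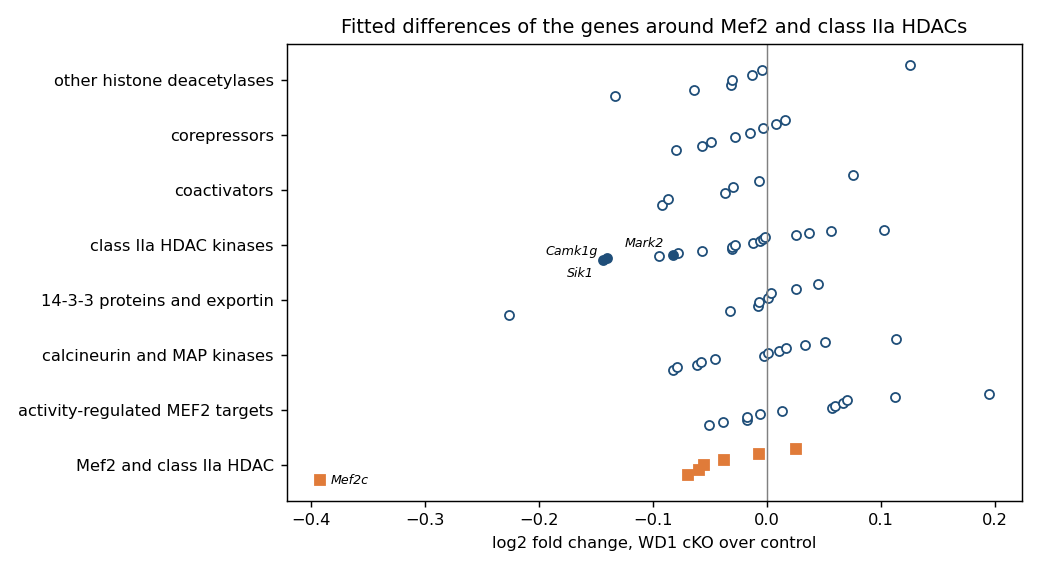
Log2 fold change of *WD1* cKO over control (horizontal axis) for the 70 genes of the 7 lists (circles, filled where the unadjusted p-value was under 0.05) and for the 7 *Mef2* and class IIa deacetylase genes that passed the filter (squares). The circles lie between -0.23 and 0.19 and *Mef2c* lies at -0.39.

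*Mef2c* is also expressed in muscle, endothelium and some immune cells, so markers of these cells were set beside it. The groups' ranges of the summed markers overlapped in all 10 lists, and no marker gene was at 0 in every library of a group. The 9 skeletal muscle markers summed to 29.4 to 209 CPM in control and to 53.9 to 115 CPM in *WD1* cKO embryos. Of the 8 genes tested, 7 were below 0 on the log2 fold change scale, with a median of -0.52, and none was called. With the muscle sum as a covariate the log2 fold change of *Mef2c* was -0.39, and the call was lost. Over all genes 3 were then called, beside 7 in the main fit. The part of muscle was not tested further. The 8 endothelial markers summed to 315 to 371 CPM in control and to 307 to 364 CPM in *WD1* cKO embryos. Of these markers 2 were below 0, with a median of 0.032, and with them as a covariate *Mef2c* was at -0.39 and called. The 8 macrophage markers summed to 87.3 to 105 and 84.7 to 101 CPM, with 5 genes below 0 and a median of -0.038. Blood markers summed to 155 to 2472 and 189 to 1138 CPM, with 5 of the 6 genes tested below 0 and a median of -0.94. The part of macrophages and blood cells in the result was not tested.

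The 8 neuronal markers summed to 7199 to 7760 CPM in control and to 7345 to 7683 CPM in *WD1* cKO embryos, and with them as a covariate *Mef2c* was at -0.38 and called. Among the 7 markers of TrkB+ A-fibre low-threshold mechanoreceptors (A-LTMR), a class of touch neurons, the sums were 1002 to 1148 and 1048 to 1158 CPM, with 3 genes below 0 and a median log2 fold change of 0.083. Most of this sum was *Ret*, at a mean of 747 CPM in control and 791 CPM in *WD1* cKO embryos. The study also places Ret in developing nociceptors, so the sum does not measure these touch neurons alone. *Calb2* (calretinin) fell, with a log2 fold change of -2.06 (edgeR adjusted p = 4.8e-05), and no other gene of that list passed the adjusted threshold. At an unadjusted p-value under 0.05 there were also *Ntrk2*, the gene of TrkB, at -0.18, *Shox2*, a homeobox gene, at 0.30 and *Mafa*, a transcription factor gene, at 0.34 (edgeR adjusted p = 1.00, 0.784 and 1.00). The schwann and satellite glia, mural and connective tissue lists summed to 758 to 881, 170 to 238 and 4191 to 5835 CPM in control and to 739 to 932, 193 to 222 and 4635 to 5445 CPM in *WD1* cKO embryos, and their part was not tested either.

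Embryos of both sexes were present, as read from *Xist*, the RNA of the inactive X chromosome. *Xist* was above 100 CPM in 2 of the 5 control and in 4 of the 5 *WD1* cKO libraries, at 958 to 1169 CPM, and at 3.39 to 4.85 CPM in the others. Among the libraries with *Xist*, *Mef2c* was at 85.5 and 86.2 CPM in control and at 60.4 to 71.7 CPM in *WD1* cKO embryos. Among those without it, *Mef2c* was at 77.4 to 91.8 CPM in the 3 control libraries and at 62.3 CPM in the single *WD1* cKO library. With *Xist* as a covariate the log2 fold change was -0.41 and the call was lost. Over all genes 4 were then called, beside 7 in the main fit.

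**Figure D5:**
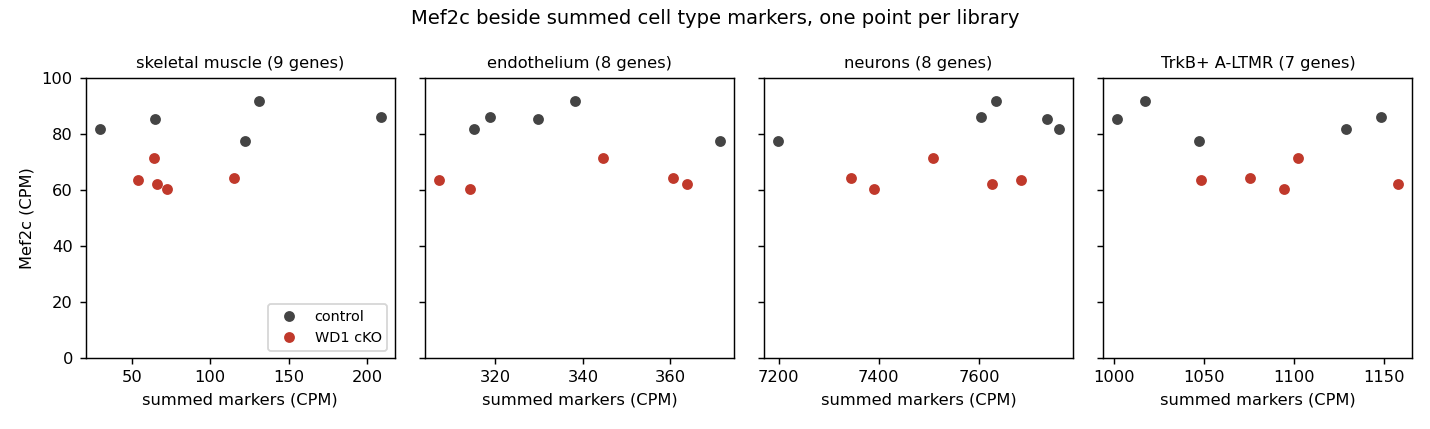
*Mef2c* (vertical axes, CPM, from 0) against the summed CPM of the markers of skeletal muscle, endothelium, neurons and TrkB+ A-LTMR (horizontal axes, which do not start at 0), with 1 point per library. The *WD1* cKO libraries (red) lie at 60.4 to 71.7 CPM and the control libraries (grey) at 77.4 to 91.8 CPM, and along the horizontal axes the groups overlap. The TrkB+ A-LTMR sum is mostly *Ret*, which developing nociceptors also express.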

How the data were processed

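Bulk RNA of DRG of 5 control and 5 *WD1* cKO embryos was sequenced from stranded mRNA libraries. Alignment was to GRCm39 (STAR 2.7.8a) and counting by gene used featureCounts 2.0.1. The authors deposited these raw counts, not normalized. The strand setting and the treatment of multimapping reads are not given in the sources used here, so genes that overlap on opposite strands, as *Mef2a*, *Mef2d*, *Hdac4* and *Hdac7* do with a neighbour, are uncertain. The methods of the study used DESeq2, which is an alternative here.

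The test was edgeR 4.0.16 in R 4.3.3 (TMM, quasi-likelihood test, no block or covariate). It covered 17490 genes, those that reached 10 counts in 5 libraries or more. DESeq2 1.42.0 was run beside it. The steps were tested on simulated data. Within a group, chi-square over its degrees of freedom was 4.33 to 15.7 for pairs of libraries, above sampling noise, so each library counts as 1 sample. Symbols (52081 of 55414 identifiers) and exon lengths came from GENCODE M21 and promoters from RefSeq, both on GRCm38, and are used for names, lengths and the printed promoters only. Log2 CPM used a prior count of 2.

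The members and gene lists were chosen with earlier results of these data known. Named were the 8 genes, list genes with an unadjusted p-value under 0.05, *Dach1*, and the genes most like *Mef2c*, and genes picked later are said to be so. Alternatives were DESeq2's size factors, other filters, robust dispersions, the replicate block, covariates (*Xist*, muscle, endothelial and neuronal markers), another length, total counts and each library left out.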

Additional observations from a re-analysis of the deposited data

Results flagged for a closer look

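Within the groups of 5 libraries, 48 sets of values were examined for a library far from the rest (Dixon's gap ratio, of which chance would flag about 1 in 20), and 3 were found, all in control replicate 3. Its summed neuronal markers (7199 CPM) lay below those of the other control libraries (7604 to 7760 CPM), its summed connective tissue markers (5835 CPM) above the others (4191 to 4533 CPM), and its summed spinal cord markers (15.1 CPM) above the others (0.0736 to 0.528 CPM). No *Mef2* or class IIa deacetylase gene that passed the filter was found so in either group, and *Mef2c* had a log2 fold change of -0.42 once this library was left out. The part of these markers in the levels of the 8 genes was not tested.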

How the results depend on the processing

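The log2 fold changes of the 7 genes moved by less than 1 SD between replicates under all 20 alternatives listed in the methods. That of *Mef2c* ranged from -0.41 to -0.38 in the 10 alternatives that kept all libraries and from -0.43 to -0.36 when 1 library was left out. Within sets of replicate numbers, a split chosen after seeing the data, only *Hdac7* moved further, to 0.014 in the libraries numbered 4 and 5. The number of the 8 genes called, 1 as reported, was 0 with *Xist* and 0 with the muscle markers as a covariate. Over all genes, 4 were called with *Xist* and 3 with the muscle markers, beside 7 as reported. The number of the 8 genes called ranged from 0 to 1 when 1 library was left out (called without control replicate 3 or *WD1* cKO replicate 1). It was 1 in the 8 other alternatives, DESeq2's Wald test and the replicate block among them. No gene of the 70 was called after adjustment under any of the 20. At an unadjusted p-value under 0.05, the count of genes lower, 3 as reported, was 1 without a filter on low counts, 0 with *Xist*, 6 with the endothelial and 5 with the neuronal markers as a covariate, and 1 to 3 when 1 library was left out. The count higher, 0 as reported, was 1 with the muscle, 1 with the endothelial and 3 with the neuronal markers, and 0 to 2 when 1 library was left out. With the replicate number as a block, these counts were 7 lower and 1 higher. Over all 17490 genes, those under this threshold in either direction rose too. They numbered 787 as reported, 1241 with the block, 1257 with the endothelial and 955 with the neuronal markers. They numbered 757 with the muscle markers and 627 with *Xist*. After adjustment, 8 genes were called over all genes with the block and 7 without it. The numbers were not taken as pairs in the main fit, since deviations of the libraries numbered 2 correlated at only 0.036. This correlation was 0.33, 0.32, 0.35 and 0.39 for numbers 1, 3, 4 and 5. Of the 10 libraries, 6 correlated best with their own number. The standard error of *Mef2c* was 0.053 in the main fit and 0.036 with the block. The main fit thus leaves out structure that goes with the number.

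With the longest transcript as the length, levels per length in control DRG were 33.9 for *Mef2a*, 13.5 for *Mef2c*, 17.2 for *Mef2d*, 16.2 for *Hdac4*, 11.5 for *Hdac5*, 18.2 for *Hdac7* and 7.16 for *Hdac9* (CPM per kilobase). The share of *Mef2c* was then 20.8% in control and 16.7% in *WD1* cKO embryos (added after seeing the data), and 23.2% and 18.7% with reads not divided by length. The shares, correlations and ranges without control replicate 3 were also added after seeing the data. Depth limits *Mef2b*, with at most 10 counts in a library.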
